A study of Mus musculus with 36 samples.

Results

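Lung endothelial genes are described here by 10 genes that are used to mark or that act in the vessel wall: *Cdh5*, *Pecam1*, *Kdr*, *Tek*, *Flt1*, *Vwf*, *Edn1*, *Ednrb*, *Car4* and *Apln*. They were chosen by name, with earlier results of these data known. Every probe set whose platform annotation gives one of these symbols and no other was taken. This gave 17 probe sets of the 45037 tested and 10 genes of the 18193 with a probe set. The RNA was whole-lung RNA from the left lung of 36 male mice, 7 to 13 weeks old, with 1 mouse per Affymetrix whole-genome mouse array. The mice were *Notch3-/-* (the Notch3tm1Grid allele), *Notch4-/-* (the Notch4tm1Grid allele) or wild type (WT, B6129SF1/J hybrids), and each genotype had 3 mice in filtered air and 3 mice at each of 6, 24 and 48 hr of continuous whole-body inhalation of 0.3 ppm ozone. The knockouts are germline deletions in all cells, and WT mice were first-generation hybrids, unlike the knockouts, so that the effect of a deletion and that of strain background cannot be told apart. Each genotype had 1 air group, which all 3 of its ozone groups share.

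The endothelium of the lung is a thin sheet of cells that forms the wall of a dense capillary bed around the alveoli, and it controls what passes between blood and airspace. *Cdh5* (VE-cadherin) and *Pecam1* hold endothelial cells together at their junctions. *Kdr* and *Flt1* are receptors for vascular endothelial growth factor, *Kdr* as the main signaling receptor and *Flt1* largely as a trap for the ligand, and *Tek* (Tie2) is the receptor for the angiopoietins, which keep vessels quiet or make them leak. *Edn1* encodes endothelin-1, a vasoconstrictor, and *Ednrb* the endothelin B receptor, which clears endothelin-1 and relays a dilator signal in endothelium. *Apln* encodes the peptide apelin, *Vwf* the clotting protein von Willebrand factor, and *Car4* a carbonic anhydrase on the capillary surface. In mouse lung *Car4*, *Ednrb* and *Apln* are markers of the aerocyte, the large capillary cell of gas exchange, and *Notch4* is itself an endothelial Notch receptor whereas *Notch3* is found mainly in the mural cells around vessels.

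Promoters of the members that passed a test most often (*Ednrb*, *Tek* and *Apln*) and of *Flt1*, which passed in *Notch4-/-* mice, are shown to give the sequence at their start sites. Each window runs from 250 bases before to 50 after the annotated RefSeq start, and 7 of the 10 members (*Kdr*, *Tek*, *Flt1*, *Edn1*, *Ednrb*, *Car4* and *Apln*) had an entry. Capitals mark matches, on either strand, to the letters of 5 kinds of factor, and no match overlaps another in the windows shown. The first are AGGAAG or CGGAAG, a core bound by ETS factors such as *Erg* and *Fli1*, which drive endothelial genes. The next are TGGGAA, bound by RBPJ, the DNA-binding partner of Notch. Letters for hypoxia-inducible factors were ACGTG. Those for GATA factors were TGATAA or AGATAA. Those for AP-1 were TGANTCA.
Ednrb, GRCm38.p6, chr14:103843652-103843951, minus strand: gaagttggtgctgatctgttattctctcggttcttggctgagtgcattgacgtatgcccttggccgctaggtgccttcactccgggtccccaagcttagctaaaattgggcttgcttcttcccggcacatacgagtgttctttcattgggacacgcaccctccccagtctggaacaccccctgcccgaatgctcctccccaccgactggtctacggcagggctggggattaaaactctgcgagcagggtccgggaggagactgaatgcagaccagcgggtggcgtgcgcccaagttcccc
Tek, GRCm38.p6, chr4:94739039-94739338, plus strand: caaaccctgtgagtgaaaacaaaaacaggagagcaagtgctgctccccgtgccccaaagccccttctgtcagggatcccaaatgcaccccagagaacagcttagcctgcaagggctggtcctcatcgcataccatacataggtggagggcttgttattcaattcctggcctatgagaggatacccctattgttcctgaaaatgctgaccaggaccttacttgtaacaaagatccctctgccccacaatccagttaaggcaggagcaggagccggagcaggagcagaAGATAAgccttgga
Apln, GRCm38.p6, chrX:48034804-48035103, minus strand: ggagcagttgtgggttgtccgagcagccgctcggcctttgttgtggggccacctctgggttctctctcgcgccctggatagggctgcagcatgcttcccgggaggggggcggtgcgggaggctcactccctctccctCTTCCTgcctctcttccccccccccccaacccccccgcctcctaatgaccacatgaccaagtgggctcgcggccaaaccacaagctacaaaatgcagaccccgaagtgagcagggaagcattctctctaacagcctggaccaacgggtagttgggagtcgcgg
Flt1, GRCm38.p6, chr5:147725962-147726261, minus strand: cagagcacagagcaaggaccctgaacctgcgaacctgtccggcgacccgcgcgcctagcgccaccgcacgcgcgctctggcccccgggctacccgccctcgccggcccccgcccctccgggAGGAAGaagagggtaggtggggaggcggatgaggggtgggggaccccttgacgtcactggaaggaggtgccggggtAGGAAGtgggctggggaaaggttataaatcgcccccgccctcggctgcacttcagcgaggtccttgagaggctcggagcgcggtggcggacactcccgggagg
The *Ednrb* window held no match to any of these letters. The *Tek* window held 1 GATA match, the *Apln* window 1 ETS match and the *Flt1* window 2 ETS matches. Over the 7 member promoters, ETS letters were in 3, RBPJ letters in 2, hypoxia letters in 2, GATA letters in 2 and AP-1 letters in 0, where 46.5%, 25.6%, 19.6%, 18.6% and 7.81% of all 32851 promoters of the same length held them. A match is a run of letters and not evidence of binding.

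The deposited log2 values had been shifted so that every probe set has a median of 0 over the mice. Levels below are therefore relative to that median, levels of different genes cannot be compared, and whether a gene was above background cannot be read. In bulk lung, fewer endothelial cells and less RNA per endothelial cell cannot be told apart. The labels were checked on the targeted genes. A *Notch3* probe set (1421965_s_at) lay between -4.51 and -3.13 in *Notch3-/-* mice and between -0.53 and 0.60 in WT mice. A *Notch4* probe set (1449146_at) lay between -4.31 and -1.40 in *Notch4-/-* mice and between -0.38 and 0.58 in WT mice, where *Notch4-/-* air replicates 1 and 2, at -1.97 and -1.40, stood apart from replicate 3 at -3.69. *Notch4* 1456263_at differed from WT by only -0.74 over all exposures, and on it air replicate 2 read -0.19, where the lowest WT mouse read -0.14. *Notch4* 1436901_at was not lower beyond the threshold (-0.08, limma adjusted p = 0.618). Array standard deviations ran from 0.164 to 0.426, and the highest was *Notch4-/-* 48 hr ozone replicate 2, an array that was lowest or next to lowest for several members below. The lowest was *Notch4-/-* air replicate 2 (0.164) and the next *Notch4-/-* air replicate 1 (0.207), the same mice that had the intermediate *Notch4* signal. One component, made of the deviations of the arrays from their group means, held 26.1% of that variation. The members followed it to unequal degrees and not all in the same direction. Pearson's r was 0.42 and 0.288 for the *Car4* probe sets. It was negative for every probe set of the other members, from -0.208 for *Apln* to -0.916 for *Ednrb* 1423594_a_at.

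*Ednrb* gave the most calls. Its probe set 1437347_at was lower after 48 hr ozone than in air over the 3 genotypes, lower after 24 and 48 hr ozone in *Notch3-/-* mice, and lower in both knockout lines than in WT. In *Notch3-/-* mice it read 0.32, 0.22 and 0.08 in air, -0.14, -0.08 and 0.15 after 6 hr, -0.17, -0.12 and -0.41 after 24 hr, and -0.37, -0.40 and -0.32 after 48 hr. The 24 hr and 48 hr mice all lay below the 3 air mice. In *Notch4-/-* mice it read 0.03, 0.13 and -0.34 in air, 0.10, 0.19 and -0.06 after 6 hr, -0.40, -0.36 and 0.03 after 24 hr, and -0.40, -0.56 and -0.19 after 48 hr. Here air replicate 3 lay among the ozone mice. In WT mice it read 0.39, 0.24 and 0.20 in air, 0.35, 0.39 and 0.18 after 6 hr, 0.34, 0.41 and 0.38 after 24 hr, and -0.04, -0.03 and -0.03 after 48 hr. The WT mice stayed within one range through 24 hr and all lay below the air mice at 48 hr.

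**Figure D1:**
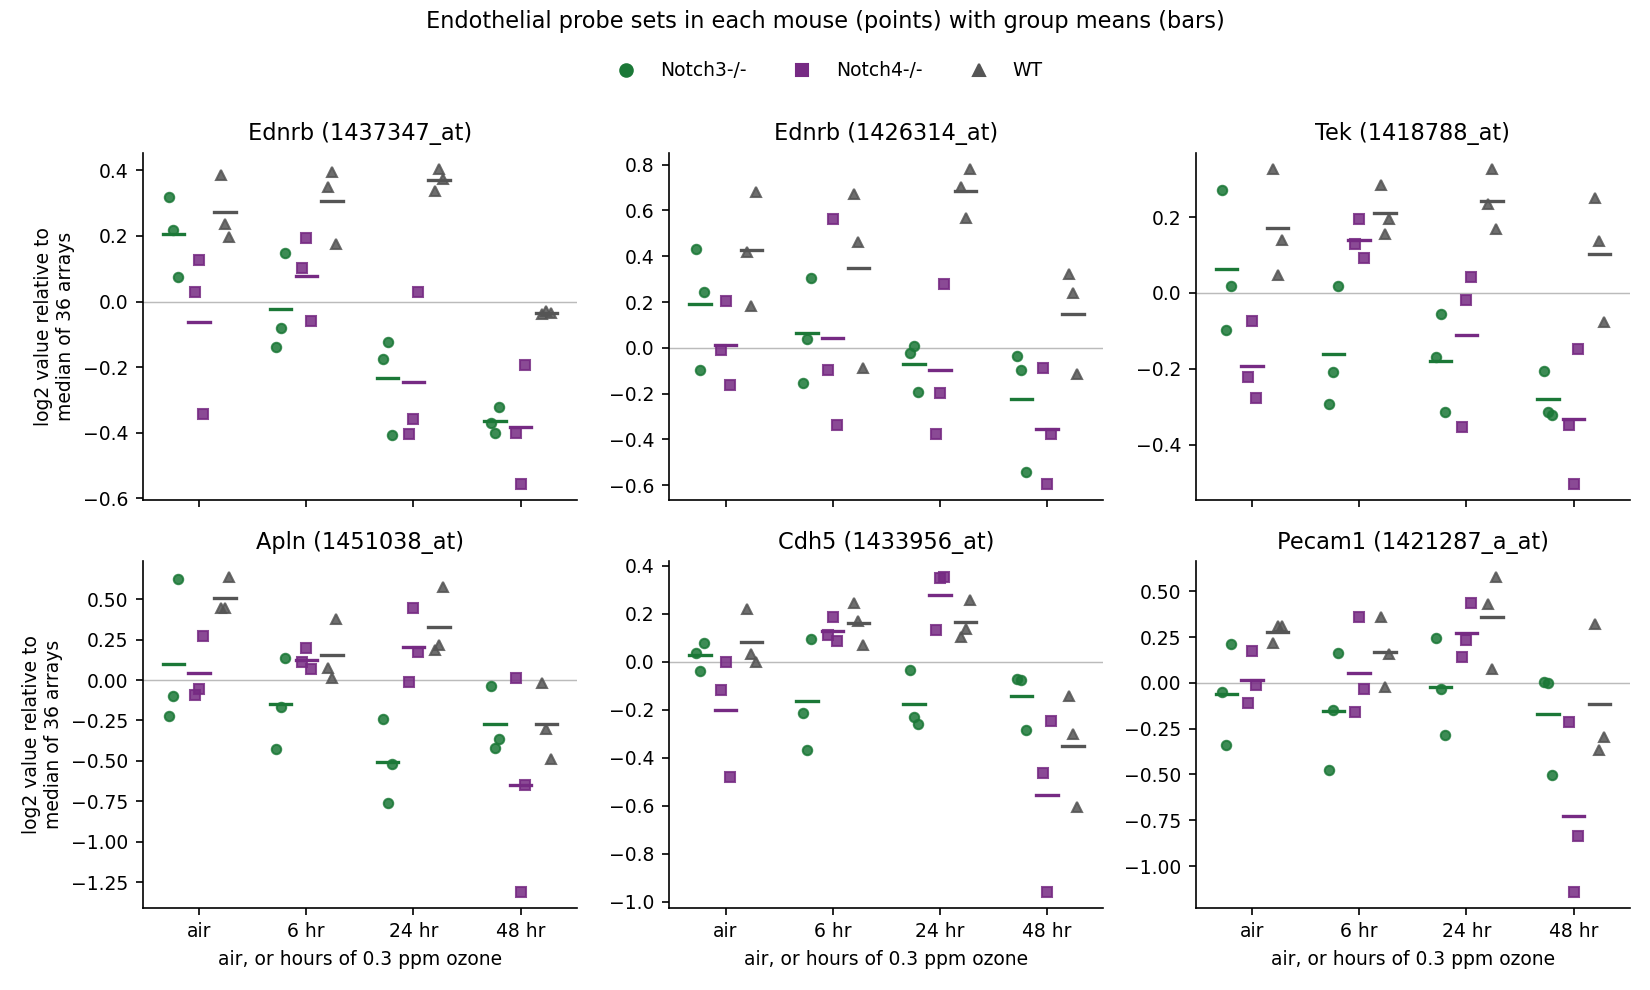
Log2 value relative to the median of the 36 arrays (vertical axis) by exposure (horizontal axis) for 6 member probe sets, with each mouse as a point, *Notch3-/-* mice as circles, *Notch4-/-* mice as squares, WT mice as triangles, and bars at the group means (n = 3). For *Ednrb* 1437347_at all 9 mice at 48 hr lie below zero, and the WT group mean is the highest of the 3 in each exposure.

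Compared with air, *Ednrb* 1437347_at in *Notch3-/-* mice fell by 0.44 at 24 hr (SE 0.12, limma adjusted p = 0.046) and by 0.57 at 48 hr (SE 0.12, adjusted p = 0.0063), where the 48 hr level was 0.674 times that in air. These were the only member calls within a genotype, 1 of 17 probe sets at each time, where 1.34% of all probe sets were called lower at 24 hr and 0.528% at 48 hr. The 24 hr call was lost without any 1 of the 6 mice (adjusted p 0.0569 to 0.232), and the 48 hr call was lost without *Notch3-/-* air replicate 1 (adjusted p = 0.0597). Over the 3 genotypes at 48 hr, the 9 ozone mice ran from -0.56 through a median of -0.32 to -0.03, and the 9 air mice from -0.34 through 0.20 to 0.39. All 9 ozone mice lay below the median of the air mice and 8 of the 9 air mice lay above every ozone mouse, the exception being *Notch4-/-* air replicate 3. The difference was -0.40 (SE 0.07, adjusted p = 0.00019), and it passed without each of the 18 mice in turn.

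The *Ednrb* level was also lower in the knockout lines. Over all exposures, probe set 1437347_at ran from -0.41 through a median of -0.13 to 0.32 in the 12 *Notch3-/-* mice and from -0.04 through 0.29 to 0.41 in the 12 WT mice, a difference of -0.33 (SE 0.06, adjusted p = 0.00045). In the 12 *Notch4-/-* mice it ran from -0.56 through -0.13 to 0.19, a difference from WT of -0.38 (SE 0.06, adjusted p = 9.7e-05). Of the 12 mice in each line, 8 *Notch3-/-* mice and 7 *Notch4-/-* mice lay below the lowest WT mouse. The second probe set, 1426314_at, was lower by 0.41 in *Notch3-/-* mice (SE 0.11, adjusted p = 0.018) and by 0.50 in *Notch4-/-* mice (SE 0.11, adjusted p = 0.0035), with medians of -0.03 in *Notch3-/-* mice, -0.13 in *Notch4-/-* mice and 0.44 in WT mice. At 48 hr of ozone it differed from air by -0.35 (SE 0.12, adjusted p = 0.069). The third, 1423594_a_at, spread from -2.02 to 1.36 over the arrays, its differences had SEs of 0.374 to 1.06, and it passed no test. Over the 36 arrays the first and second probe sets had a Pearson's r of 0.811 with each other and of 0.413 and 0.449 with the third.

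*Tek*, the angiopoietin receptor, differed by genotype and passed no ozone test. Its values in *Notch3-/-* mice were 0.27, -0.10 and 0.02 in air, -0.29, -0.21 and 0.02 after 6 hr, -0.17, -0.05 and -0.31 after 24 hr, and -0.21, -0.31 and -0.32 after 48 hr. *Notch4-/-* mice read -0.22, -0.08 and -0.28 in air, 0.13, 0.19 and 0.09 after 6 hr, -0.35, -0.02 and 0.04 after 24 hr, and -0.35, -0.50 and -0.15 after 48 hr. WT mice read 0.33, 0.05 and 0.14 in air, 0.28, 0.16 and 0.19 after 6 hr, 0.23, 0.33 and 0.17 after 24 hr, and 0.25, 0.14 and -0.08 after 48 hr. Thus 11 of the 12 mice of each knockout line lay below the WT median, and 8 *Notch3-/-* mice and 6 *Notch4-/-* mice lay below the lowest WT mouse. Over all exposures *Tek* was lower by 0.32 in *Notch3-/-* mice (SE 0.06, adjusted p = 0.00046) and by 0.31 in *Notch4-/-* mice (SE 0.06, adjusted p = 0.00093), levels 0.801 and 0.809 times that of WT. Both calls passed without each of the 24 mice compared. At 48 hr of ozone *Tek* differed from air by -0.18 over the genotypes (SE 0.07, adjusted p = 0.081).

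*Apln*, the apelin peptide, was lower after 48 hr ozone and in *Notch3-/-* mice. In *Notch3-/-* mice it read -0.22, -0.10 and 0.62 in air, -0.43, -0.17 and 0.14 after 6 hr, -0.24, -0.76 and -0.52 after 24 hr, and -0.04, -0.42 and -0.37 after 48 hr. In *Notch4-/-* mice it read -0.09, -0.06 and 0.27 in air, 0.11, 0.20 and 0.07 after 6 hr, -0.01, 0.45 and 0.18 after 24 hr, and 0.02, -1.31 and -0.65 after 48 hr. In WT mice it read 0.45, 0.45 and 0.64 in air, 0.08, 0.01 and 0.38 after 6 hr, 0.19, 0.22 and 0.58 after 24 hr, and -0.02, -0.30 and -0.49 after 48 hr. The lowest single value belonged to *Notch4-/-* 48 hr replicate 2, and in WT mice the 48 hr and air groups did not overlap. Over the genotypes the 9 mice at 48 hr ran from -1.31 through -0.37 to 0.02 and the 9 air mice from -0.22 through 0.27 to 0.64. The difference was -0.62 (SE 0.13, adjusted p = 0.0024), the largest fall among the 17 member probe sets and a level 0.653 times that in air, and it passed without each of the 18 mice in turn. Within 1 genotype no *Apln* difference passed, with -0.38 in *Notch3-/-* mice (adjusted p = 0.55), -0.69 in *Notch4-/-* mice (adjusted p = 0.15) and -0.78 in WT mice (adjusted p = 0.090). Over all exposures *Apln* was lower by 0.39 in *Notch3-/-* mice than in WT (SE 0.12, adjusted p = 0.045), a call that was lost without 18 of the 24 mice in turn (adjusted p up to 0.0948), and it differed by -0.25 in *Notch4-/-* mice (adjusted p = 0.24).

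The junction genes *Cdh5* and *Pecam1* were lower after 48 hr ozone over the 3 genotypes, *Cdh5* by 1 of its 2 probe sets. *Cdh5* 1433956_at read -0.07, -0.08 and -0.28 in *Notch3-/-* mice, -0.46, -0.96 and -0.25 in *Notch4-/-* mice and -0.14, -0.30 and -0.60 in WT mice after 48 hr ozone, and 0.04, -0.04 and 0.08 in *Notch3-/-* mice, -0.12, 0.00 and -0.48 in *Notch4-/-* mice and 0.22, 0.03 and 0.00 in WT mice in air. All 9 ozone mice lay below the median of the air mice, and 7 air mice lay above every ozone mouse. The difference was -0.32 (SE 0.08, adjusted p = 0.011), and the other probe set, 1422047_at, gave -0.36 with a larger error (SE 0.15, adjusted p = 0.14). The *Cdh5* call did not pass when *Notch4-/-* air replicates 1 and 2, the mice of intermediate *Notch4* signal, were left out together (adjusted p = 0.148).

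*Pecam1* read 0.003, -0.003 and -0.51 in *Notch3-/-* mice, -0.21, -1.14 and -0.83 in *Notch4-/-* mice and 0.32, -0.37 and -0.30 in WT mice after 48 hr ozone, and -0.05, -0.34 and 0.21 in *Notch3-/-* mice, -0.11, 0.18 and -0.01 in *Notch4-/-* mice and 0.22, 0.31 and 0.31 in WT mice in air. The ranges of ozone and air mice overlapped. The difference over the genotypes was -0.42 (SE 0.12, adjusted p = 0.028), and it was lost without any 1 of 6 of the 18 mice (adjusted p up to 0.0723), which were WT 48 hr replicates 2 and 3, *Notch3-/-* air and 48 hr replicates 3, *Notch4-/-* air replicate 2 and *Notch4-/-* 48 hr replicate 2. It was also lost with the Tukey test of the methods (adjusted p = 0.199), with array weights (a difference of -0.27, adjusted p = 0.105), with a further quantile normalization (adjusted p = 0.0523), with adjustment over all comparisons of a kind (adjusted p = 0.0792) and without *Notch4-/-* air replicates 1 and 2 together (adjusted p = 0.0934). By genotype it was -0.11 in *Notch3-/-* mice (adjusted p = 0.91), -0.75 in *Notch4-/-* mice (adjusted p = 0.072) and -0.39 in WT mice (adjusted p = 0.57). Neither gene differed by genotype beyond the threshold over all exposures, with *Pecam1* at -0.28 (SE 0.11, adjusted p = 0.16) in *Notch3-/-* mice and -0.27 (SE 0.11, adjusted p = 0.16) in *Notch4-/-* mice.

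The 4 probe sets of *Flt1*, the decoy receptor for vascular endothelial growth factor, were compared by genotype. In *Notch4-/-* mice 1451756_at was lower than in WT by 0.43 (SE 0.13, adjusted p = 0.038) and 1454037_a_at by 0.41 (SE 0.12, adjusted p = 0.038). The differences of the other 2 missed the threshold, at -0.34 for 1440926_at (SE 0.10, adjusted p = 0.0503) and -0.24 for 1419300_at (SE 0.09, adjusted p = 0.13). Probe set 1451756_at ran from -0.61 through -0.14 to 0.31 in the 12 *Notch4-/-* mice and from -0.39 through 0.33 to 0.89 in the 12 WT mice, so that the ranges overlapped while all 12 *Notch4-/-* mice lay below the WT median. The first call was lost without 13 and the second without 12 of the 24 mice in turn, with adjusted p up to 0.084 and 0.0878. In *Notch3-/-* mice the 4 differences from WT ran from -0.24 to -0.11, and none passed. The main signaling receptor, *Kdr*, differed by -0.12 in *Notch3-/-* mice (SE 0.10, adjusted p = 0.60) and -0.05 in *Notch4-/-* mice (SE 0.10, adjusted p = 0.84). At 48 hr of ozone *Kdr* differed from air by -0.31 (SE 0.11, adjusted p = 0.075), with *Notch4-/-* replicate 2 lowest at -1.16.

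**Figure D2:**
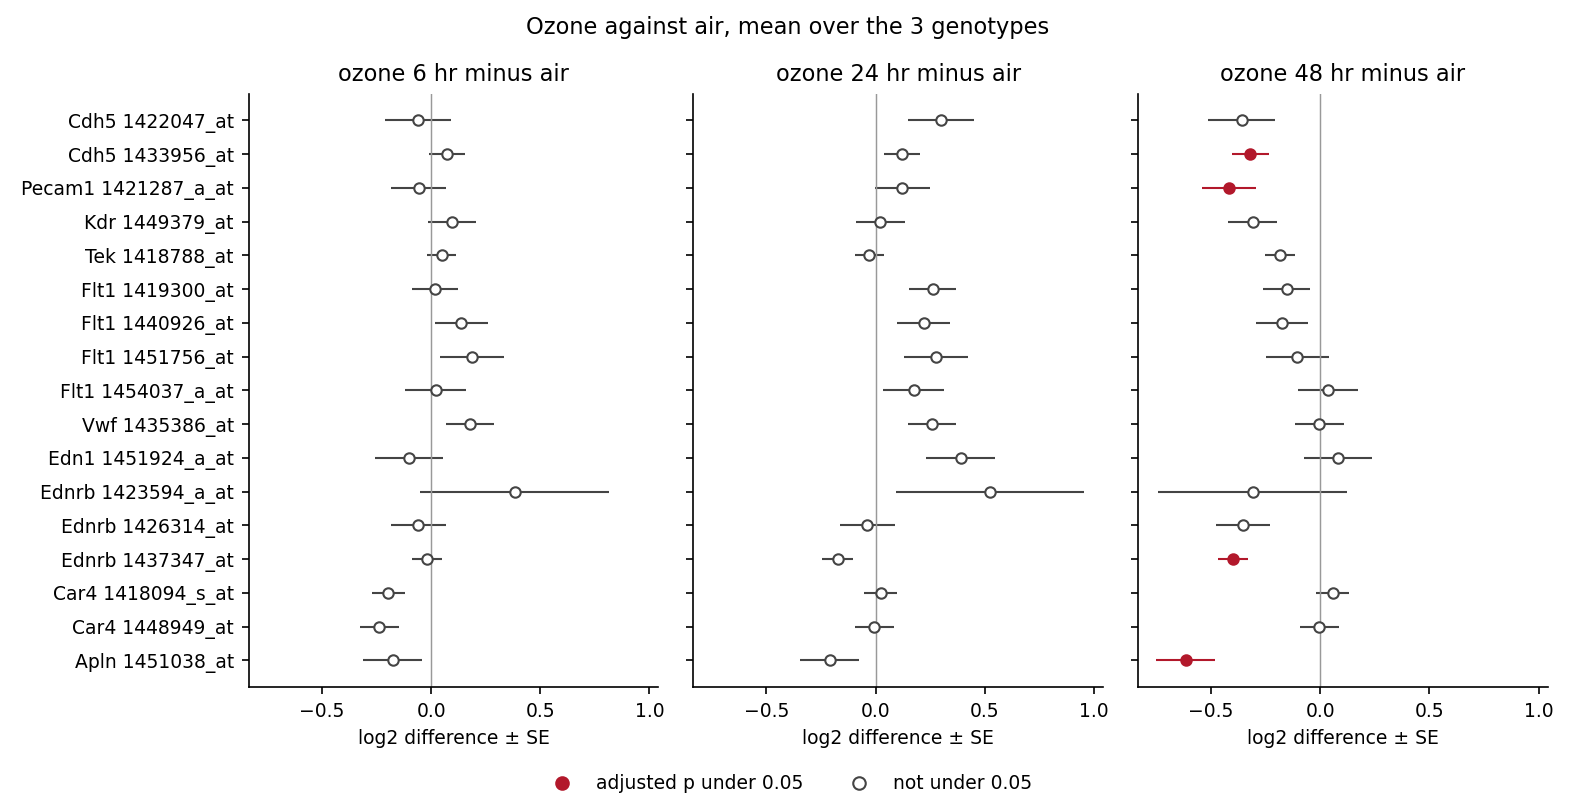
Log2 difference between ozone and air (horizontal axis), as the mean over the 3 genotypes, for the 17 member probe sets (rows) at 6, 24 and 48 hr, with bars of 1 SE and filled points where the adjusted p was under 0.05. At 48 hr the filled points are *Cdh5* 1433956_at, *Pecam1*, *Ednrb* 1437347_at and *Apln*, at -0.32, -0.42, -0.40 and -0.62.

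*Edn1*, the endothelin-1 ligand, passed no test. Its pooled difference from air was -0.10 at 6 hr, 0.39 at 24 hr (SE 0.16, adjusted p = 0.15) and 0.08 at 48 hr. At 24 hr it read 0.46, 0.29 and 0.46 in *Notch3-/-* mice, -0.20, 0.17 and -0.28 in *Notch4-/-* mice and 0.54, 0.94 and 0.38 in WT mice. The *Notch4-/-* mice at that time all lay below the *Notch3-/-* and WT mice. Over all exposures *Edn1* differed from WT by -0.42 in *Notch4-/-* mice (SE 0.14, adjusted p = 0.069), and all 12 lay below the WT median.

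*Vwf* and *Car4* passed no test either. *Vwf* differed from air by 0.18 at 6 hr, 0.26 at 24 hr (SE 0.11, adjusted p = 0.18) and -0.004 at 48 hr, and in *Notch4-/-* mice from WT by -0.29 (SE 0.10, adjusted p = 0.076). The *Car4* probe sets were -0.20 (1418094_s_at, SE 0.07, adjusted p = 0.15) and -0.24 (1448949_at, SE 0.09, adjusted p = 0.14) at 6 hr and between -0.01 and 0.06 at 24 and 48 hr. Over 36 arrays *Car4* stood apart from the other members. The 30 pairs of a *Car4* probe set with one of another member had Pearson's r from -0.466 to 0.209, with a median of -0.154, whereas the 95 pairs among the other members had r from 0.0867 to 0.871, with a median of 0.559. The median over deviations from the group means was -0.131 for *Car4* pairs and 0.534 for the others. These are descriptions over arrays that share lungs and normalization.

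Of the 17 probe sets, 3 were lower and 2 higher than in air in all 3 genotypes at 6 hr, 0 were lower and 4 higher at 24 hr, and 10 were lower and 1 higher at 48 hr. At 48 hr 14 of the 17 probe sets had a negative pooled difference from air, with a median of -0.18 where the median of all probe sets was -0.01. Of the 17, 4 were called lower and 0 higher, or 23.5%, where 3.96% of all probe sets were called lower and 6.72% higher. The members were chosen with earlier results of these data known, so this share does not test them as a set. At 24 hr 12 of 17 were positive with a median of 0.12, and 0 were called where 5.29% of all probe sets were. At 6 hr 9 of 17 were positive, and 0 were called where 2.9% of all were. At an unadjusted p under 0.05 the counts were 2 of 17 at 6 hr, 4 at 24 hr and 8 at 48 hr, against 19.2%, 21.2% and 22.3% of all probe sets. The count at 48 hr was 2 rather than 4 with the Tukey test of the methods (*Ednrb* 1437347_at and *Apln*), and likewise 2 without *Notch4-/-* air replicates 1 and 2.

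Within a genotype, 0 member probe sets were called at 6 hr in *Notch3-/-* mice, where 0.16% of all probe sets were, 0 at 6, 24 and 48 hr in *Notch4-/-* mice, where 0.00666%, 1.39% and 1.75% were, and 0 at the same times in WT mice, where 0%, 0.104% and 1.89% were. The nearest were *Pecam1* at 48 hr and *Cdh5* 1433956_at at 24 hr (0.48, SE 0.14, adjusted p = 0.086) in *Notch4-/-* mice and *Apln* at 48 hr in WT mice. An array-weighted fit called 4 member probe sets in *Notch4-/-* mice and 2 in WT mice, but the share of all probe sets that it called was not counted. The response to ozone of each knockout line was set against that of WT at each time, and no member passed. The shares of all probe sets called in those tests were 0.00888%, 0.00444% and 0.00222% for *Notch3-/-* mice at 6, 24 and 48 hr and 0%, 0% and 0.00222% for *Notch4-/-* mice. For *Ednrb* 1437347_at at 24 hr the response of *Notch3-/-* mice minus that of WT was -0.54 (95% interval -0.89 to -0.19 before adjustment, adjusted p = 0.43), and at 48 hr -0.26 (-0.61 to 0.09). For *Apln* at 48 hr it was 0.40 in *Notch3-/-* mice (-0.27 to 1.08) and 0.09 in *Notch4-/-* mice (-0.59 to 0.76).

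**Figure D3:**
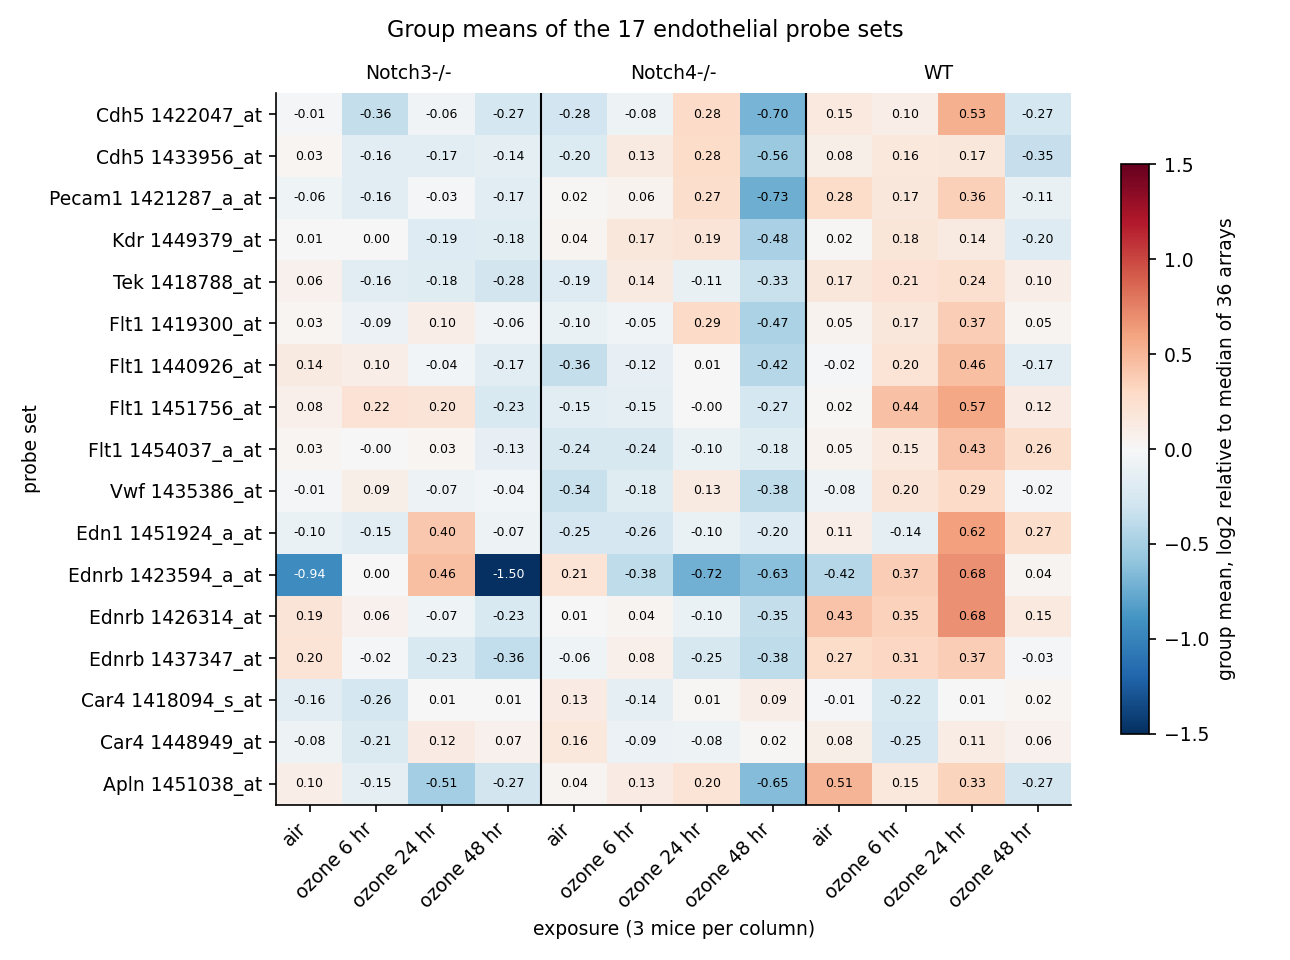
Group mean of the log2 value relative to the median of the 36 arrays (color and printed number, n = 3 mice per cell) for the 17 member probe sets (rows) in each genotype and exposure (columns). *Notch4-/-* mice after 48 hr ozone hold the lowest group mean for both *Cdh5* probe sets, *Pecam1*, *Kdr*, *Tek*, *Vwf* and *Apln*. They also hold it for *Ednrb* 1426314_at and 1437347_at and for every *Flt1* probe set but 1454037_a_at. WT mice after 24 hr hold the highest for *Cdh5* 1422047_at, *Pecam1*, *Tek*, *Vwf*, *Edn1* and all probe sets of *Flt1* and *Ednrb*.

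In air, 0 of 17 member probe sets were called in *Notch3-/-* or in *Notch4-/-* mice against WT, where 0.486% and 0.482% of all probe sets were, and the member medians were -0.11 and -0.28. Over all exposures, every one of the 17 differences was negative in *Notch3-/-* mice and 15 in *Notch4-/-* mice, with medians of -0.22 and -0.31 where the medians over all probe sets were 0.001 and 0.0005. Against WT, *Notch3-/-* mice had 4 of the 17 member probe sets called lower (23.5%), from *Tek*, *Ednrb* and *Apln*. *Notch4-/-* mice had 5 of the 17 (29.4%), from *Tek*, *Ednrb* and *Flt1*. By 1 probe set per gene these calls came to 3 of 10 genes for *Notch3-/-* and 2 of 10 for *Notch4-/-*. Of all probe sets, 2.4% were called lower and 3.28% higher for *Notch3-/-*, and 2.89% lower and 2.87% higher for *Notch4-/-*. Both comparisons share the 12 WT mice. When the lines were set against each other, 0 of 17 passed where 1.09% of all probe sets did, and *Notch4-/-* minus *Notch3-/-* was -0.05 for *Ednrb* 1437347_at (95% interval -0.17 to 0.08), 0.01 for *Tek* (-0.10 to 0.13) and 0.14 for *Apln* (-0.10 to 0.38).

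**Figure D4:**
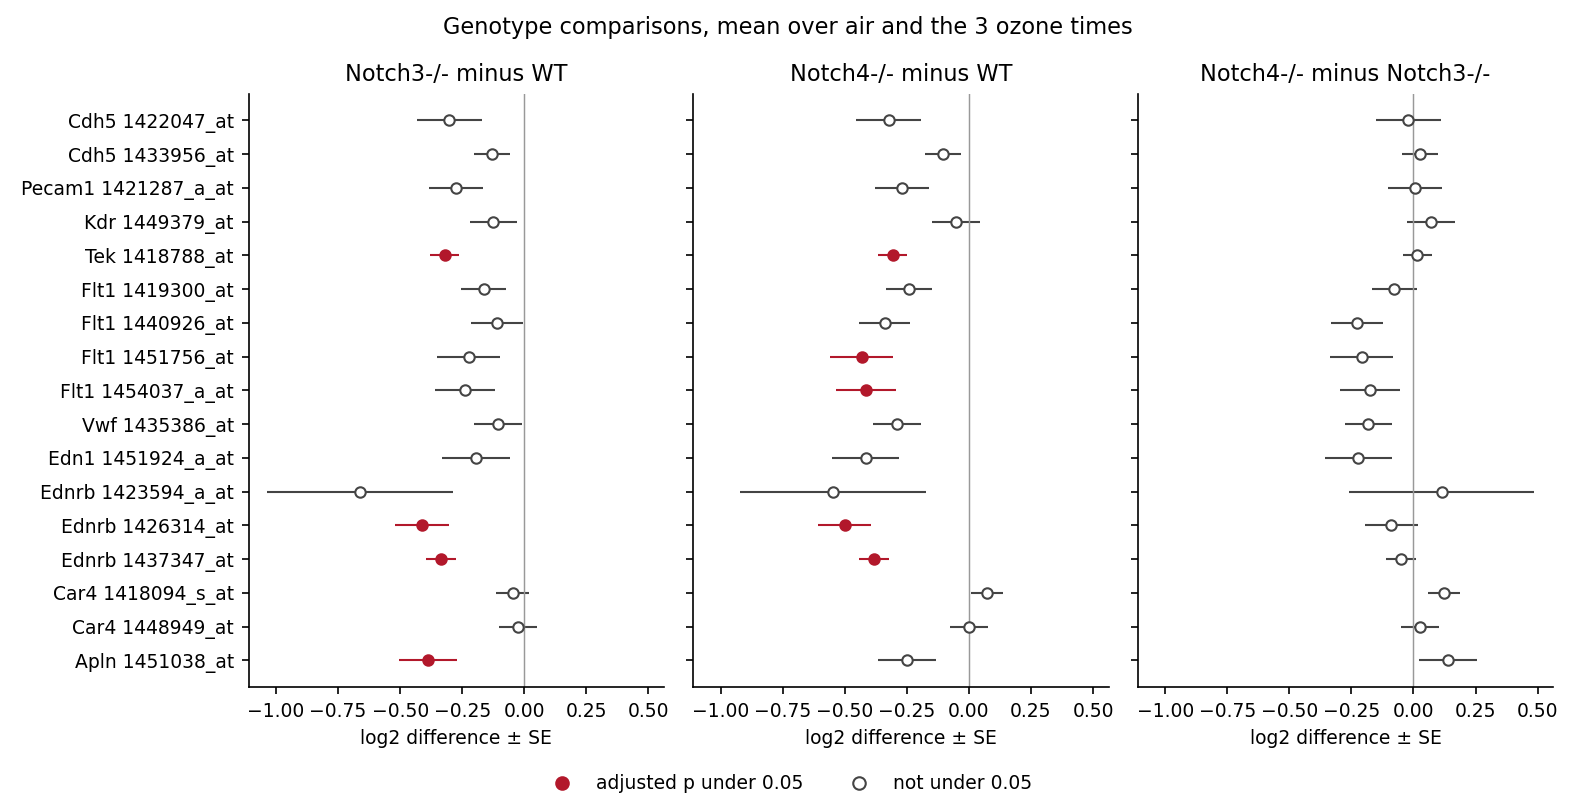
Log2 difference between genotypes (horizontal axis), averaged over the 4 exposures, for the 17 member probe sets (rows), with bars of 1 SE and filled points where the adjusted p was under 0.05. *Tek* and the *Ednrb* probe sets 1437347_at and 1426314_at are filled in both knockout lines against WT. *Apln* is filled in *Notch3-/-* mice (-0.39) and 2 *Flt1* probe sets in *Notch4-/-* mice (-0.43 and -0.41), and none is filled between the lines.

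Among the members with calls, *Ednrb*, *Tek* and *Apln* had their highest group mean in WT mice, while *Cdh5* 1433956_at had it in *Notch4-/-* mice after 24 hr ozone (0.28, with 0.17 in WT mice at that time). For *Ednrb* 1437347_at the means ran from 0.37 in WT mice after 24 hr ozone to -0.38 in *Notch4-/-* mice after 48 hr, next to -0.36 in *Notch3-/-* mice after 48 hr, and this last pair lay closer than their SDs. For *Tek* they ran from 0.24 in WT mice after 24 hr to -0.33 in *Notch4-/-* mice after 48 hr. For *Apln* they ran from 0.51 in WT mice in air to -0.65 in *Notch4-/-* mice after 48 hr.

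Other endothelial genes, each by 1 probe set, were read from lists of receptors, junction genes and regulators. These lists too were chosen with earlier results of these data known, so their counts do not test them as sets. At 48 hr of ozone, when 3.96% of all probe sets were called lower and 6.72% higher, 7 of 19 junction and surface genes were lower and 0 higher, among them *Cd34* (-0.37, SE 0.07, adjusted p = 0.00035), *Emcn* (-0.52, SE 0.11, adjusted p = 0.0016), *Cldn5*, the tight junction claudin of endothelium (-0.25, SE 0.06, adjusted p = 0.0063), and *Icam2* (-0.32, SE 0.08, adjusted p = 0.0063). Of 19 vascular growth factors and receptors 6 were lower, including *Tie1*, the partner receptor of *Tek* (-0.54, SE 0.10, adjusted p = 0.00061), *Ephb4* (-0.40) and the ligand *Vegfa* (-0.27, SE 0.07, adjusted p = 0.0087), while *Pgf*, placental growth factor, was higher (0.58, SE 0.10, adjusted p = 0.00018). All 16 endothelial transcription factors had a negative sign, as had 53.4% of all probe sets, and 3 were called lower, namely *Mef2c* (-0.28), *Erg* (-0.19) and *Sox7* (-0.46). Of 8 further aerocyte genes 3 were called lower, *Nckap5* (-0.44), *Tbx2* (-0.29) and *Fibin* (-0.39). Among 11 genes of vascular tone and clotting *Thbd*, which encodes thrombomodulin (-0.41, SE 0.07, adjusted p = 5.3e-05), *Aqp1* (-0.24) and *Tfpi* (-0.26) were lower and *Plat* was higher (0.41). The list medians of these groups ran from -0.22 to -0.13.

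Some genes that inflamed endothelium switches on were higher after ozone. Of 8 activation genes 4 were higher and 0 lower at 24 hr, where 3.19% of all probe sets were called higher, with *Lrg1* at 1.47 (SE 0.14, adjusted p = 1.2e-07), *Sele*, which encodes E-selectin, at 0.93 (SE 0.12, adjusted p = 8e-06), *Icam1* at 0.30 and *Selp*, which encodes P-selectin, at 0.35. At 48 hr 3 of the 8, *Lrg1* (1.51), *Selp* (0.50) and *Icam1* (0.33), were higher and 0 lower, where 6.72% of all probe sets were called higher. Partners of the peptide members were mixed at 48 hr, when of 7 genes the apelin receptor *Aplnr* was lower (-0.29, SE 0.08, adjusted p = 0.025) and the endothelin-converting enzyme *Ece2* higher (0.52, SE 0.08, adjusted p = 3.9e-05). Of 12 general capillary and large vessel genes *Aplnr* was lower and *Selp* higher, and of 5 lymphatic markers none passed. At 6 hr, when 2.9% of all probe sets were called, 3 of 11 endothelial Notch genes were lower, the receptor *Notch2* (-0.34, SE 0.06, adjusted p = 0.0021) and the Notch targets *Hes1* (-0.43) and *Hey2* (-0.29), and of 16 transcription factors *Klf2* was higher (0.80) and *Sox18* lower (-0.46). At 24 hr, when 5.29% were called, *Adm*, the peptide adrenomedullin, was the 1 growth factor or receptor of 19 to pass (1.04, SE 0.21, adjusted p = 0.003), and of 19 junction and surface genes *Podxl* was higher (0.53) and *Cd34* lower (-0.24). *Mef2c* was lower at that time (-0.27), and of 12 general capillary and large vessel genes 1 was higher and 1 lower at 6 hr and 2 were higher and 1 lower at 24 hr.

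Over all exposures 2.4% of all probe sets were called lower and 3.28% higher in *Notch3-/-* mice than in WT, and 2.89% lower and 2.87% higher in *Notch4-/-* mice. *Aplnr* was lower than in WT by 0.77 in *Notch3-/-* mice (SE 0.07, adjusted p = 1.6e-08) and by 0.37 in *Notch4-/-* mice (SE 0.07, adjusted p = 0.0017). *Procr*, the endothelial protein C receptor, was lower by 1.41 in *Notch3-/-* mice (SE 0.09, adjusted p = 2.1e-12) and by 1.36 in *Notch4-/-* mice (SE 0.09, adjusted p = 6.5e-12). Of 11 endothelial Notch genes the ligands *Dll4* and *Jag1* were lower in both lines, *Dll4* by 0.42 in *Notch3-/-* mice (SE 0.08, adjusted p = 0.00093) and 0.43 in *Notch4-/-* mice (SE 0.08, adjusted p = 0.00099), and *Jag1* by 0.32 in *Notch3-/-* mice (adjusted p = 0.016) and 0.36 in *Notch4-/-* mice (adjusted p = 0.0063). The study's qRT-PCR of whole lung, by contrast, found no genotype effect on *Jag1*. Growth factors and receptors were lower in 3 of 19 genes in *Notch3-/-* mice (*Tie1*, *Ramp2* and *Vegfd*) and in 6 of 19 in *Notch4-/-* mice, led by *Ramp2*, *Vegfc*, *Efnb2* and *Vegfd*. Of 19 junction and surface genes 3 were lower in *Notch3-/-* mice (*Mmrn2*, *Clec14a* and *Esam*), 2 were lower in *Notch4-/-* mice (*Mmrn2* and *Esam*) and 0 were higher in either line, with *Mmrn2* lower by 0.41 in *Notch3-/-* mice (adjusted p = 0.0003) and by 0.56 in *Notch4-/-* mice (adjusted p = 4.6e-06). *Procr* and *Aqp1* were the 2 of 11 genes of tone and clotting to pass in each line. Of 16 transcription factors *Elk3* was lower in both lines and *Foxo1* in *Notch4-/-* mice, and of 8 aerocyte genes *Cyp4b1* was lower in both and *Nckap5* in *Notch4-/-* mice. Of 7 endothelin and apelin partners *Aplnr* was lower in both lines and *Mme* in *Notch4-/-* mice, and of 12 general capillary and large vessel genes *Aplnr* was lower in both and *Kit* in *Notch3-/-* mice. Of 8 activation genes 1 was higher and 1 lower in each line, with *Lrg1* higher by 0.56 in *Notch3-/-* mice (SE 0.13, adjusted p = 0.0046) and by 0.47 in *Notch4-/-* mice (SE 0.13, adjusted p = 0.02), and with *Ackr3* at -0.21 in *Notch3-/-* mice and -0.32 in *Notch4-/-* mice. Of 5 lymphatic markers *Pdpn*, which is also on the alveolar type 1 list, was higher in *Notch3-/-* mice (0.21, adjusted p = 0.015), and *Lyve1* was lower in *Notch4-/-* mice (-0.52, adjusted p = 0.0057). Between the lines, where 1.09% of all probe sets passed, *Aplnr* was higher in *Notch4-/-* than in *Notch3-/-* mice (0.41, SE 0.07, limma adjusted p = 0.0016). *Pdpn* was lower in *Notch4-/-* than in *Notch3-/-* mice (-0.24, SE 0.05, limma adjusted p = 0.0145).

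**Figure D5:**
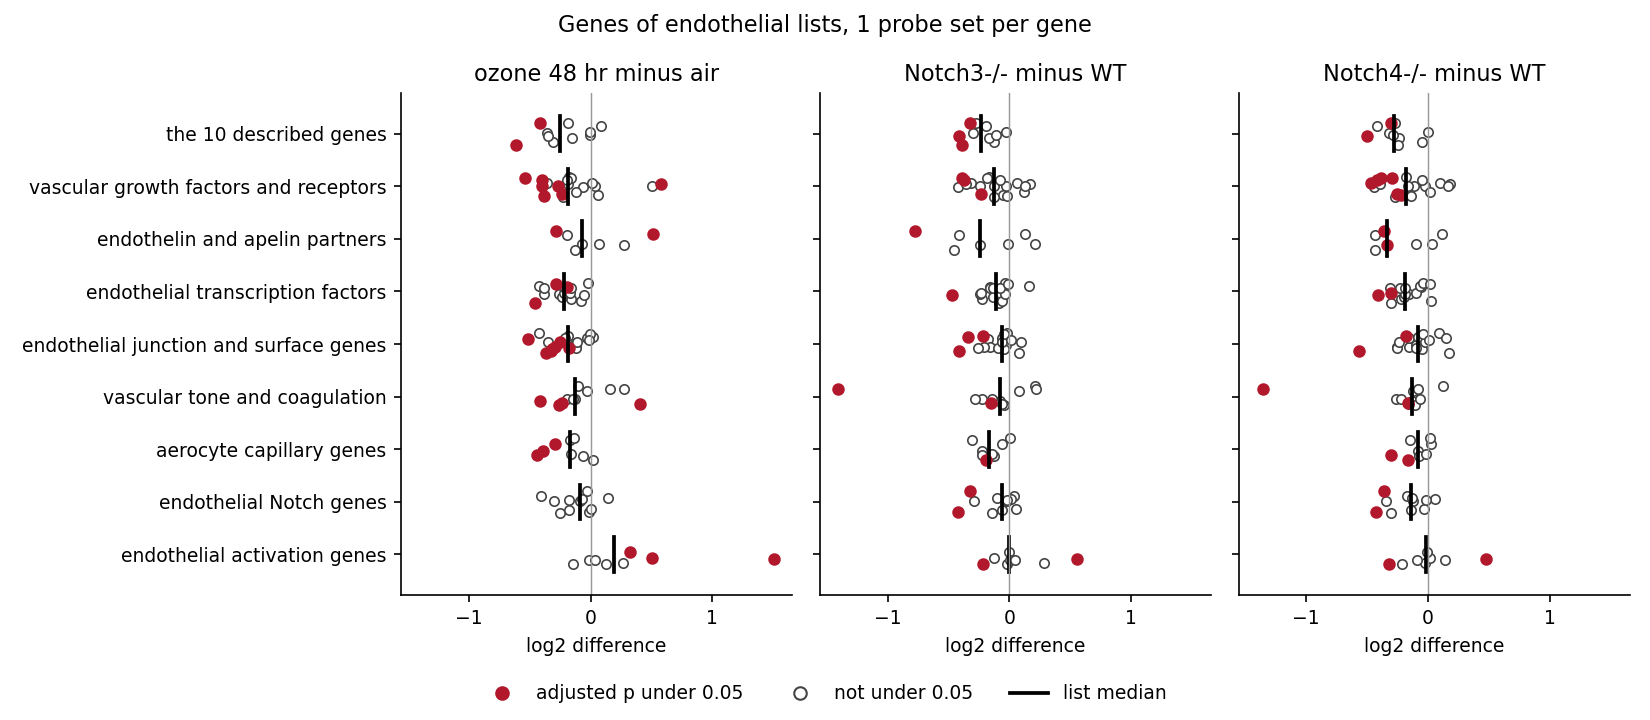
Log2 difference (horizontal axis) of each gene of the endothelial lists (rows, 1 probe set per gene) for 48 hr ozone against air over the genotypes and for each knockout line against WT over all exposures, with filled points where the adjusted p was under 0.05 and a bar at the list median. The list medians shown at 48 hr lie below zero except that of the activation genes (0.19), and the far point in each knockout panel is *Procr* at -1.41 and -1.36.

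Markers of some other cells moved in the same comparisons. At 48 hr of ozone 6 of 7 proliferation genes were higher, by 2.14 for *Cdk1* (adjusted p = 3.3e-08), and the mean over the list ran from 1.17 to 1.81 in the 9 ozone mice and from -1.33 to 1.13 in the 9 air mice. Of 8 macrophage genes 4 were higher at that time, by 0.92 for *Marco* (adjusted p = 1.8e-06), with list means from 0.07 to 0.48 in the ozone mice and from -0.37 to 0.33 in the air mice. In the knockout lines 8 of 10 neutrophil genes were higher than in WT, *S100a8* by 2.09 in *Notch3-/-* mice and 1.32 in *Notch4-/-* mice, and the list mean ran from -0.17 to 1.54 in *Notch3-/-* mice, from -0.16 to 0.69 in *Notch4-/-* mice and from -0.88 to -0.20 in WT mice. Of 8 alveolar type 1 markers 2 were lower and 1 higher in *Notch3-/-* mice and 3 were lower in *Notch4-/-* mice, *Ager* by 0.27 in *Notch3-/-* mice and 0.29 in *Notch4-/-* mice, and 2 were lower at 48 hr of ozone. The platelet genes *Pf4* and *Ppbp*, from a cell type that also holds von Willebrand factor and *Pecam1*, were higher in *Notch4-/-* mice by 0.69 and 0.75, 2 of 6 on that list, and 0 of 6 passed in *Notch3-/-* mice. Of 7 proliferation genes 5 were higher in *Notch4-/-* mice than in WT, with *Bub1* at 0.73 and *Cdk1* at 0.84, and 0 of 7 passed in *Notch3-/-* mice. At 48 hr of ozone 3 of 10 fibroblast and mesothelial genes were lower (*Tcf21* by 0.38, *Npnt* by 0.42 and *Inmt* by 0.20) and 1 higher (*Pdgfra*, 0.33), and 2 of 12 smooth muscle and pericyte genes were lower (*Abcc9* by 0.39 and *Postn* by 0.32). At 48 hr of ozone and in each line against WT, 0 of 8 alveolar type 2, 0 of 8 skeletal muscle and 0 of 8 cardiac muscle markers passed. The muscle lists varied between mice. In the 9 air mice the skeletal muscle mean ran from -0.09 to 2.86 and the cardiac muscle mean from -0.46 to 1.06. The part of these cells in the member results was not tested.

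The genes most like each member over the 36 arrays, by Pearson's r of 1 probe set per gene against 18192 others, were only in part known endothelial genes. *Apln* was closest to *Pdgfa* (0.846), the endothelial protocadherin *Pcdh12* (0.829) and *Scn3b* (0.828), and *Pecam1* to *Rasip1* (0.909), which is needed for vessel lumens, *Csnk1d* (0.885) and *Myo10* (0.868). *Tek* was closest to *Fmo1* (0.859), *Ehd3* (0.851) and *Fgf1* (0.851), and *Ednrb* 1426314_at to *Ehd3* (0.837), the alveolar type 1 gene *Ager* (0.833) and *Myo10* (0.828). *Edn1* had the lowest values, with *Rhoj* (0.749), *Rnf125* (0.715) and *Dync1li1* (0.712). *Cdh5* was closest to *Zfp652* (0.917), *Akap2* (0.912) and *Sh3glb1* (0.901), *Kdr* to *Trrap* (0.863), *Phf21a* (0.862) and *Fat4* (0.855), *Flt1* to *Tshz1* (0.917), *Cbfa2t3* (0.907) and *Rbms3* (0.898), *Vwf* to *Eef2* (0.898), *Wipf2* (0.892) and *Smurf1* (0.873), and *Car4* to *Mettl9* (0.814), *Ppp4c* (0.804) and *Nudt16l1* (0.803).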

How the data were processed

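Left-lung RNA of 36 mice was measured on Affymetrix arrays. The authors normalized the intensities by robust multiarray average (RMA) in GeneSpring, and the deposited values are log2 values, found to have a median of 0 for every probe set (largest absolute median 5e-07). Centring leaves differences between arrays as they were and removes the level. The 64 control probe sets were left out, and 45037 were tested. Of these, 34945 have 1 gene symbol, 932 several and 9160 none, and the gene IDs of 34741 were found in RefSeq, which gave the symbol used.

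One limma fit (version 3.58.1 in R 4.3.3) with a mean for each of the 12 groups gave 23 comparisons: ozone against air within each genotype and over the genotypes, each knockout line against WT in air and over all exposures, the knockout lines against each other, and the ozone response of each line against that of WT. Adjustment was by Benjamini-Hochberg over all probe sets of a comparison, with a threshold of 0.05. A 2-way ANOVA with Tukey's test, as in the study's methods, was among the alternatives. All 10 members were named with every probe set of that single symbol. Of each list described in a comparison the counts were given and up to 4 genes of smallest p were named, by 1 probe set per gene (least ambiguous suffix, then lowest number), and for each member the 3 genes with the highest r. The members and lists were chosen with earlier results of these data known. The p-values rest on the spread between mice within groups, pooled over the 12 groups and moderated across probe sets. They do not measure the spread of the compared groups alone. The 3 mice of a group are labelled as separate samples. Their number limits precision, with a median SE over all probe sets of 0.139 within a genotype, 0.0802 for ozone over the genotypes and 0.0695 for a line over all exposures. The median SEs of the 17 member probe sets were larger, at 0.208, 0.120 and 0.104 in the same order. The steps were tested on simulated data. No arrays were near copies of each other. The gene symbols, centring and adjustment above apply to every value reported, and the other settings tried are array weights, other normalizations and filters, subsets of arrays and a replicate block.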

Additional observations from a re-analysis of the deposited data

How the results depend on the processing

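All member calls named kept their sign in each of the 9 or 10 other settings run for them and with each array left out in turn. *Ednrb* 1437347_at and *Apln* at 48 hr over the genotypes, and *Tek* and *Ednrb* 1437347_at in both lines, passed under every setting run for them. The Tukey test of the methods gave 0 rather than 1 member call in *Notch3-/-* mice against air, 2 rather than 4 at 48 hr over the genotypes (a count added to the results after the data were seen, as were its alternatives), 2 rather than 4 in *Notch3-/-* mice and 3 rather than 5 in *Notch4-/-* mice against WT. Array weights gave 3 in *Notch3-/-* mice, 4 in *Notch4-/-* mice and 2 in WT mice against air, 8 in *Notch4-/-* mice against WT over all exposures, 2 in the knockouts in air and 1 response difference (*Ednrb* 1437347_at). Fitting the genotypes compared alone gave 1 in WT mice (*Apln*), a further quantile normalization 1 in *Notch4-/-* mice (*Cdh5* 1433956_at), and adjustment over all comparisons of a kind 3 in *Notch4-/-* mice against WT. Without *Notch4-/-* air replicates 1 and 2, there were 2 calls in *Notch4-/-* mice against air and 2 at 48 hr over the genotypes. The first within-group component as a covariate, chosen after the data were seen and made from the deviations it then removes, which makes its p-values too small, gave 3 calls in *Notch3-/-* mice, 4 in *Notch4-/-* mice and 3 in WT mice against air, 8 at 48 hr over the genotypes, 7 in *Notch3-/-* mice and 11 in *Notch4-/-* mice against WT, and 1 response difference (*Ednrb* 1423594_a_at). With single arrays left out, the counts ran from 0 to 1 in *Notch3-/-* mice against air (0 without air replicate 1), from 0 to 2 in *Notch4-/-* mice against air, from 3 to 6 at 48 hr over the genotypes, from 3 to 4 in *Notch3-/-* mice and from 3 to 7 in *Notch4-/-* mice against WT, and stayed at 0 in WT mice against air, for knockouts in air and for response differences. The share of all probe sets called under each other setting, the replicate block below among them, was not counted. These counts, which are of member probe sets and not of genes, therefore cannot be set beside a background. The causes were not tested.

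The replicate numbers were not taken to pair the mice. Over 198 pairs of same-numbered arrays the correlation of deviations ran from -0.505 to 0.617, with a median of 0.0744 and 89 pairs over 0.1. For pairs of unlike number in different groups the median was -0.05, and 25 of 36 arrays were closest to an array of their own number. Same-numbered arrays were thus more alike than arrays of unlike number, both by the medians and by the closest array. The main fit holds no term for the replicate number, and whether the numbers mark a shared batch was not tested. With a replicate block the counts were 0 in WT mice, 1 in *Notch3-/-* mice and 0 in *Notch4-/-* mice against air, 4 at 48 hr over the genotypes, 4 in *Notch3-/-* mice and 6 in *Notch4-/-* mice against WT, the added one being *Flt1* 1440926_at, and 0 elsewhere.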
